A study of Mus musculus with 18 samples.

Results

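The left ventricle of mice that carry a cyclin D2 transgene (genotype MHC-cycD2 transgenic) was compared with that of wild-type mice by RNA sequencing. The members are the 5 libraries labelled control sham and the 5 labelled control WT, 10 of the 18 libraries of the series, and 14008 of the 38355 genes in the count tables passed the low-count filter and were tested. Both groups had the same genetic background, (DBA/2J x C3HeB/FeJ)F1. WT mice had no treatment. The transgenic mice had a sham operation, and the labels give 8 weeks as the age at surgery without saying which of 2 sham procedures was used. Genotype and sham surgery therefore cannot be told apart in any difference below. The labels give neither the sex of each mouse nor whether each library is a separate animal, so the p-values below reflect only how these samples vary, which may be technical. The transgene name points to a myosin heavy chain promoter, which is active in heart muscle cells, while RNA came from the whole ventricular wall. In such bulk tissue, fewer cells of a type and less RNA per cell cannot be told apart.

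D-type cyclins bind the kinases CDK4 and CDK6, which phosphorylate the retinoblastoma protein. This releases E2F transcription factors, which switch on genes for copying DNA. Heart muscle cells of mice leave the cell cycle soon after birth, and cyclin D2 driven in these cells is known as a way to keep them able to make DNA in the adult heart. Adult ventricles also replace fetal isoforms of contractile proteins by adult ones, burn mainly fatty acids, and switch on natriuretic peptides and skeletal actin when loaded.

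Levels are given as CPM, gene counts scaled to the size of each library with edgeR's TMM factors, and total gene counts were 19297821 to 26521057 per library. Fold changes are log2 values of sham against WT with the SE, and a gene was called at an adjusted p under 0.05 in edgeR's quasi-likelihood test with Benjamini-Hochberg adjustment over all 14008 genes. Levels with ± are means with the SD (n = 5 libraries in each group). Genes of ventricular muscle dominated every library, with 8 marker genes summing to 76921 to 90455 CPM in WT and 92670 to 104470 CPM in sham. Some libraries stood apart from others of their group. The 6 atrial marker genes summed to 493 and 807 CPM in sham replicates 2 and 5 against 114 to 130 CPM in the other sham libraries and 142 to 354 CPM in WT. Most of the WT sum was Nppa: without that gene, left out after the values were seen, the sums were 13 to 41.2 CPM in WT, 441 and 756 CPM in sham replicates 2 and 5 and 72.2 to 87.7 CPM in the other sham libraries. The 8 mesothelial markers summed to 39.3 CPM in WT replicate 2 and to 6.35 to 18.4 CPM in the other WT libraries. Of the reads counted to a gene, to no gene or to several genes, those outside any annotated gene were 19 to 22.8% in WT and 14.9 to 17.9% in sham. The counting tool's tally of alignments to several places may hold a read more than once. As a share of those reads and the tally together, it was 43.1 to 45.9% in WT and 39.1 to 41.9% in sham. Both shares differed without overlap (exact permutation test, two-sided, p = 0.00794, the smallest that 5 against 5 allows; adjusted p = 0.00893 over 9 shares). Their part in the results was not tested.

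Of the 14008 genes, 2330 (16.6%) were higher and 2301 (16.4%) lower in sham. Counts of rises and falls within the gene lists below stand against these shares. At least 2-fold differences numbered 251 higher (1.79%) and 322 lower (2.3%). The groups did not overlap for 1657 genes that were higher in every sham than in every WT library (11.8%) and for 1613 that were lower (11.5%). In a principal component analysis the groups separated along the first axis (47.3% of the variance) and the clock phases along the second (18.9%).

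**Figure D1:**
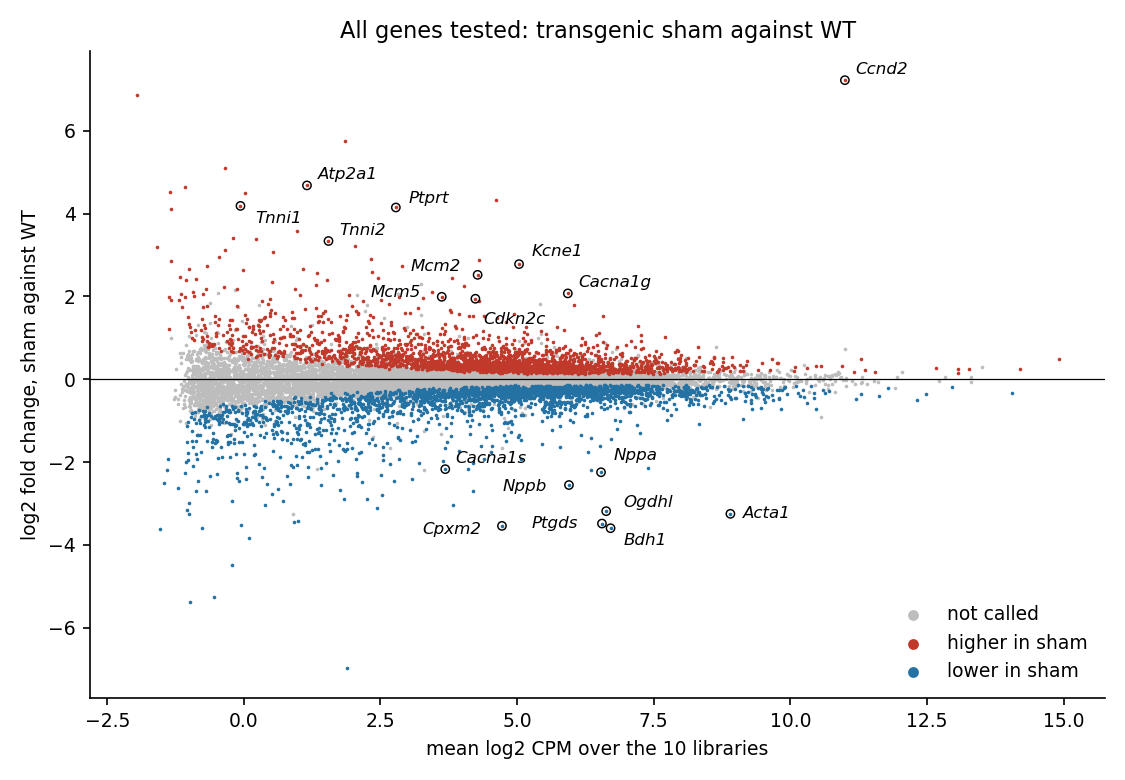
Log2 fold change of sham against WT (vertical axis) against mean log2 CPM over the 10 libraries (horizontal axis), 1 point per gene tested. Red points were called higher and blue ones lower in sham; Ccnd2 lies alone at the top right with a log2 fold change of 7.22, and most called genes lie within 1 log2 unit of 0.

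Ccnd2 (ENSMUSG00000000184, GRCm38 chromosome 6, 127125162 to 127152193), the gene for cyclin D2, checks the labels. It was at 165, 185, 171, 185 and 138 CPM in WT replicates 1 to 5 and at 30351, 28307, 20804, 25710.0 and 20912 CPM in sham replicates 1 to 5. Every sham library was far above every WT library, and the fold change was 7.22 ± 0.15 (adjusted p = 7.20e-11), or 149-fold. The counts do not separate the transgene from the mouse's own gene. Ccnd2 took 0.0171 ± 0.00196% of the gene counts in WT and 2.49 ± 0.421% in sham. Per merged length of all annotated exons of a gene, cyclin D2 made up 45.1 ± 4.8% of the 3 D cyclins in WT and 99.3 ± 0.164% in sham (exact permutation test, two-sided, p = 0.00794, the smallest possible). That exon length can exceed the length of a transcript. Ccnd1 and Ccnd3, the other 2 D cyclins, had fold changes of -0.27 and -0.01 and were not called (adjusted p = 0.0568 and 0.949).

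Of 28 tested genes of the cyclin D, CDK, RB and E2F network, 11 rose, Ccnd2 among them, and 1 fell, with a median fold change of 0.19 against -0.0034 over all genes tested. The rises included positive and negative regulators. Cdkn2c (ENSMUSG00000028551, GRCm38 chromosome 4, 109660876 to 109667189) encodes p18, an inhibitor of CDK4 and CDK6. It was at 9.71, 8.74, 9.81, 10.0 and 9.55 CPM in WT replicates 1 to 5 and at 37.7, 35.7, 35.5, 40.4 and 34.9 CPM in sham replicates 1 to 5. The 5 sham values lay close together and well above WT, a rise of 1.94 ± 0.07 (adjusted p = 3.52e-09). E2f1, an activating E2F factor, rose from a range of 1.36 to 2.45 CPM in WT to one of 4.29 to 5.16 CPM in sham (1.44 ± 0.16; adjusted p = 4.20e-05). Cdk2, the kinase that acts with cyclin E at the start of S phase, rose by 0.82 ± 0.10, and Ccne2, a cyclin E, by 0.76 ± 0.11 (adjusted p = 1.01e-04 and 2.08e-04). Cdkn1b encodes p27, an inhibitor of cyclin-CDK2 complexes, and rose by 0.53 ± 0.06 (adjusted p = 4.33e-05), from a range of 43.3 to 50.1 CPM in WT to one of 64.2 to 73.6 CPM in sham. The retinoblastoma gene Rb1 was at -0.06 (adjusted p = 0.466).

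Of 23 tested genes that license origins and unwind DNA, 15 rose and 1 fell (65.2% and 4.35%, against 16.6% and 16.4% of all genes), with a median fold change of 0.62. The MCM proteins form the ring-shaped helicase that opens DNA for copying. All 6 genes of that ring, Mcm2 to Mcm7, rose. Mcm2 was at 8, 5.96, 7.46, 8.73 and 10.4 CPM in WT replicates 1 to 5 and at 50.8, 47.4, 45, 42.5 and 47.8 CPM in sham replicates 1 to 5. Its rise of 2.52 ± 0.12 (adjusted p = 4.21e-08) was the largest in the list. Mcm5 (ENSMUSG00000005410, GRCm38 chromosome 8, 75109569 to 75128439) was at 6.28, 4.7, 5, 6.6 and 8.33 CPM in WT replicates 1 to 5 and at 25.9, 20.8, 25.6, 26.2 and 24.8 CPM in sham replicates 1 to 5. The groups did not overlap, and the rise was 1.99 ± 0.14 (adjusted p = 9.52e-07). Per kilobase of merged annotated exons, Mcm2 went from 1.17 to 6.71 CPM and Mcm5 from 1.55 to 6.18 CPM. Mcm7 rose by 1.34 ± 0.12 and Mcm4 by 1.08 ± 0.09 (adjusted p = 6.31e-06 and 4.53e-06). Cdt1, which loads the helicase onto origins, rose by 1.89 ± 0.21 (adjusted p = 3.66e-05), from a range of 1.31 to 3.19 CPM in WT to one of 7.02 to 9.46 CPM in sham. Cdc45, which activates the loaded helicase, rose by 1.06 ± 0.12 (adjusted p = 4.36e-05). Gmnn encodes geminin, the inhibitor that binds Cdt1, and it fell: it was at 67.2, 66.4, 60.5, 61.6 and 63.7 CPM in WT replicates 1 to 5 and at 40.9, 33.6, 42.8, 47.1 and 39.4 CPM in sham replicates 1 to 5, a change of -0.65 ± 0.08 (adjusted p = 7.73e-05).

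E2F factors bind short sites near the starts of many of these genes, so promoters were searched for the 8-base E2F-type motifs TTTCCCGC, TTTCGCGC, TTTGCCGC and TTTGGCGC on either strand, from 250 bases before to 50 bases after each start site listed by RefSeq (GRCm38.p6). The palindromic GCGC core lets matches overlap. At least 1 match was found for 9 of 18 licensing and helicase genes with a listed promoter (50%), 7 of 24 genes of the replication fork (29.2%) and 8 of 22 genes of the cyclin and E2F network (36.4%). It was found for 1 of 27 mitosis genes (3.7%), for 4.59% of all genes tested that had a promoter and for 2.61% of all 27025 genes with one. The share was 6.77% among genes higher in sham and 2.62% among genes lower. Of the 16 tested genes of the licensing and fork lists with a match, 11 rose, with a median fold change of 0.71, and of the 26 without one, 17 rose, with a median of 0.60. The next stretches show a match that lies wholly before the start site in 4 risen genes of the origin and helicase list. Capitals mark the motifs; the genes lie on the strand given.
Mcm5, chr8:75109311-75109412, plus strand: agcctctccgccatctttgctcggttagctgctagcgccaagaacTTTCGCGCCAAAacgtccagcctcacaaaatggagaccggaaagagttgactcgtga
Mcm7, chr5:138171996-138172093, minus strand: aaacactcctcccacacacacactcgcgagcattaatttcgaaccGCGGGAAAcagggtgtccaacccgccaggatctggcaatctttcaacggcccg
Mcm6, chr1:128359763-128359860, minus strand: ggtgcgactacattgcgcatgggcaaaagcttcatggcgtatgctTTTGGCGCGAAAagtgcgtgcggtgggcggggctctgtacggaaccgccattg
Orc1, chr4:108579382-108579453, plus strand: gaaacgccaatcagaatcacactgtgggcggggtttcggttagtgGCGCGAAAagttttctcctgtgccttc
In Mcm5 the first motif base lies 153 bases before the start site, in Mcm7 165, in Mcm6 110 and in Orc1 27. The Mcm5 and Mcm6 stretches each hold overlapping matches, written as 1 run of capitals. Outside the stretches shown, Mcm7 has another match that begins 16 bases after the start site and Mcm6 one that begins 47 bases before it. These motifs were not found in the searched window of Mcm2, which had the largest rise of the list. A match describes the letters and shows no binding.

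At the replication fork, 20 of 29 tested genes for DNA polymerases, clamp loading, nucleotide supply and chromatin assembly rose and 1 fell, with a median of 0.66. Rrm1, a subunit of the ribonucleotide reductase that makes DNA building blocks, was at 22.9, 21.5, 20.9, 22.9 and 23.3 CPM in WT replicates 1 to 5 and at 43, 37, 43.1, 39.9 and 39.2 CPM in sham replicates 1 to 5 (0.86 ± 0.06; adjusted p = 1.16e-06). Rpa1, which coats single-stranded DNA, rose by 0.77 ± 0.06, from a range of 58.2 to 72.6 CPM in WT to one of 105 to 113 CPM in sham (adjusted p = 3.58e-06). The polymerase subunits Pold1 and Pole rose by 0.81 ± 0.09 and 1.58 ± 0.19 (adjusted p = 2.73e-05 and 5.84e-05). No sham value of these 4 genes reached down into the WT range.

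**Figure D2:**
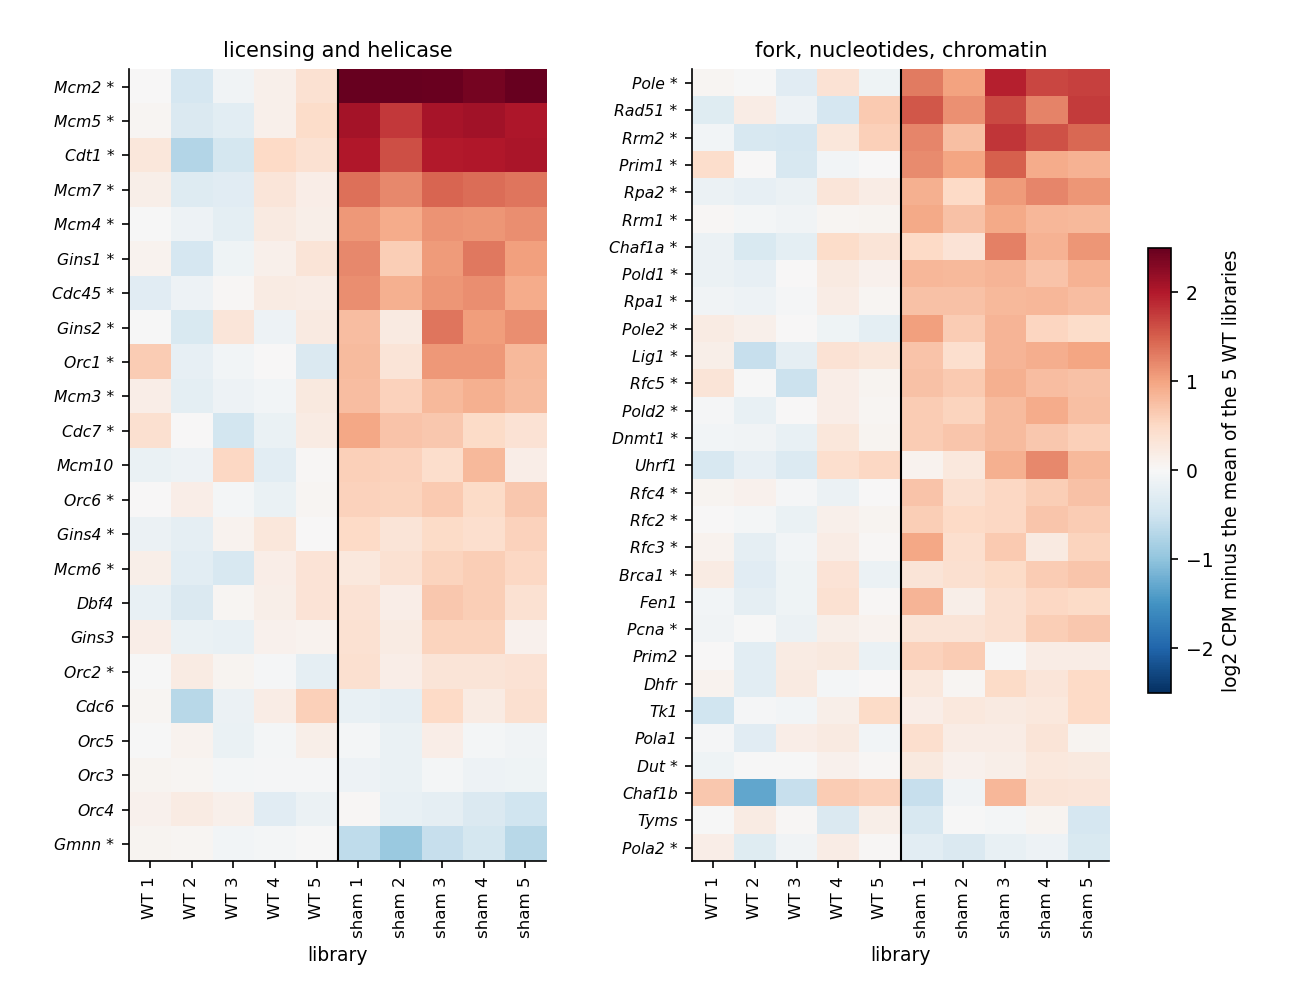
Level of each tested licensing and helicase gene (left, 23 genes) and replication fork gene (right, 29 genes) in each of the 10 libraries, as log2 CPM minus the mean of the 5 WT libraries; red is higher, blue is lower, and an asterisk marks genes called in sham against WT. The 5 sham columns are red for most genes, led by Mcm2, Mcm5 and Cdt1, while Gmnn is blue in each of them.

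Genes of mitosis and cytokinesis rose in 21 of 31, and none fell, with a median of 0.77. Bub1b, a kinase of the spindle checkpoint, was at 1.23, 1.01, 1.92, 1.15 and 1.36 CPM in WT replicates 1 to 5 and at 4.73, 3.66, 5.2, 4.09 and 4.51 CPM in sham replicates 1 to 5, a low level in both groups, with a rise of 1.73 ± 0.18 (adjusted p = 1.94e-05). Ube2c and Cdc20, which act with the complex that triggers chromosome separation, rose by 1.52 ± 0.19 and 1.39 ± 0.18 (adjusted p = 8.51e-05 and 1.12e-04), and the spindle protein gene Hmmr by 1.60 ± 0.25 (adjusted p = 4.07e-04). The proliferation marker Mki67, named here after its value was seen, had a fold change of 0.43 and missed the threshold (adjusted p = 0.0724). The number of mitosis genes that rose was 16 without sham replicate 4 and 11 when all 18 libraries of the series were fitted together. Among 14 targets of the DNA damage factor p53, the receptor gene Eda2r rose by 0.64 ± 0.10 and Ccng1, a cyclin G, fell by 0.72 ± 0.10 (adjusted p = 4.90e-04 and 1.65e-04), and the other 12 were not called. These calls were 7.14% each way, against 16.6% of all genes higher and 16.4% lower.

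The list of skeletal muscle and fetal isoforms of the contractile apparatus had 16 tested genes, of which 9 rose and 4 fell, with a median of 1.21. Apart from Myl4, described with the atrial genes, the largest rises were in isoforms of skeletal muscle with low levels in WT. Atp2a1 (ENSMUSG00000030730, GRCm38 chromosome 7, 126445858 to 126463108) encodes the calcium pump of fast skeletal muscle. It was at 0.343, 0.253, 0.385, 0.399 and 0.614 CPM in WT replicates 1 to 5 and at 9.42, 10.2, 10.4, 13.6 and 8.81 CPM in sham replicates 1 to 5, a rise of 4.68 ± 0.20 (adjusted p = 1.80e-08), or 25.6-fold. Tnni1 (ENSMUSG00000026418, GRCm38 chromosome 1, 135779434 to 135810989), the slow skeletal troponin I that the fetal heart uses, was at 0.147, 0.202, 0.289, 0.133 and 0.175 CPM in WT replicates 1 to 5 and at 2.39, 5.04, 2.35, 2.43 and 5.34 CPM in sham replicates 1 to 5. Sham replicates 2 and 5 were highest, and the rise was 4.19 ± 0.37 (adjusted p = 6.74e-06). The fast troponins Tnni2 and Tnnt3 rose by 3.34 ± 0.24 and 3.38 ± 0.24 (adjusted p = 1.16e-06 and 8.77e-07), the fast light chain Mylpf by 2.34 ± 0.25 and the slow troponin Tnnt1 by 1.14 ± 0.16 (adjusted p = 2.61e-05 and 2.92e-04). Of the list's 26 genes, 10 did not pass the low-count filter, the fast skeletal myosins Myh1, Myh2 and Myh4 among them.

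Tnni1 and Atp2a1 stayed a minor part of their families. Shares of the other risen skeletal isoforms were not computed. Per length of merged annotated exons, Tnni1 was 0.00185 ± 0.000657% of the 3 troponin I genes in WT and 0.0285 ± 0.0141% in sham. Atp2a1 was 0.00401 ± 0.00129% of Atp2a1 and Atp2a2 in WT and 0.0894 ± 0.0145% in sham (exact permutation test, two-sided, p = 0.00794 for each, the smallest possible). Atp2a2, the cardiac pump, was at 17324 ± 679.8 CPM in WT and 20473 ± 949 CPM in sham (0.24 ± 0.05; adjusted p = 0.00331), and Tnni3, the adult cardiac troponin I, at 5937 ± 402 CPM in WT and 7224 ± 673 CPM in sham (0.28 ± 0.07; adjusted p = 0.00825). Fitted with all 18 libraries, Tnni3 was at an adjusted p of 0.0552.

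Acta1 and Cacna1s, skeletal muscle genes too, moved the other way. Acta1, skeletal actin, which adult ventricles raise under load, was at 1889, 1934, 1369, 773 and 1881 CPM in WT replicates 1 to 5 and at 190.4, 229, 99.5, 95.4 and 210.3 CPM in sham replicates 1 to 5. The lowest WT library, replicate 4, was still above every sham library, and the fold change was -3.25 ± 0.37 (adjusted p = 2.18e-04). Acta1 was 13.2 ± 3.67% of Acta1 and Actc1 in WT and 1.32 ± 0.49% in sham, per length of merged annotated exons (exact permutation test, two-sided, p = 0.00794, the smallest possible). Actc1, cardiac actin, had a fold change of 0.29 ± 0.11, which missed the threshold (adjusted p = 0.0705; 0.0405 with DESeq2, and called without sham replicate 3 or 5). Cacna1s, the calcium channel of skeletal muscle, fell by 2.17 ± 0.13, from a range of 23.8 to 31.6 CPM in WT to one of 5.11 to 7.55 CPM in sham (adjusted p = 2.15e-07).

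The adult sarcomere list of 24 genes had 6 rises (25%) and 4 falls (16.7%), against 16.6% and 16.4% of all genes. Its median was 0.03, and it had 2 falls without any 1 of WT replicates 2, 3 and 4 and sham replicates 2 and 5. Myh6, the main myosin heavy chain of the mouse ventricle, was at 26066 ± 4025 CPM in WT and 36859 ± 3199 CPM in sham (0.50 ± 0.10; adjusted p = 0.00214), and Myh7, the slow one that rises under load, at 2128 ± 418 CPM in WT and 2975 ± 176 CPM in sham (0.48 ± 0.11; adjusted p = 0.00556). The share of Myh7 in Myh6 and Myh7 was 5.97 ± 0.279% in WT and 5.94 ± 0.197% in sham (exact permutation test, two-sided, p = 0.913). Mybpc3, cardiac myosin binding protein C, fell by 0.50 ± 0.09 and Mylk3, the cardiac myosin light chain kinase, by 0.46 ± 0.08 (adjusted p = 0.00158 and 8.13e-04).

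**Figure D3:**
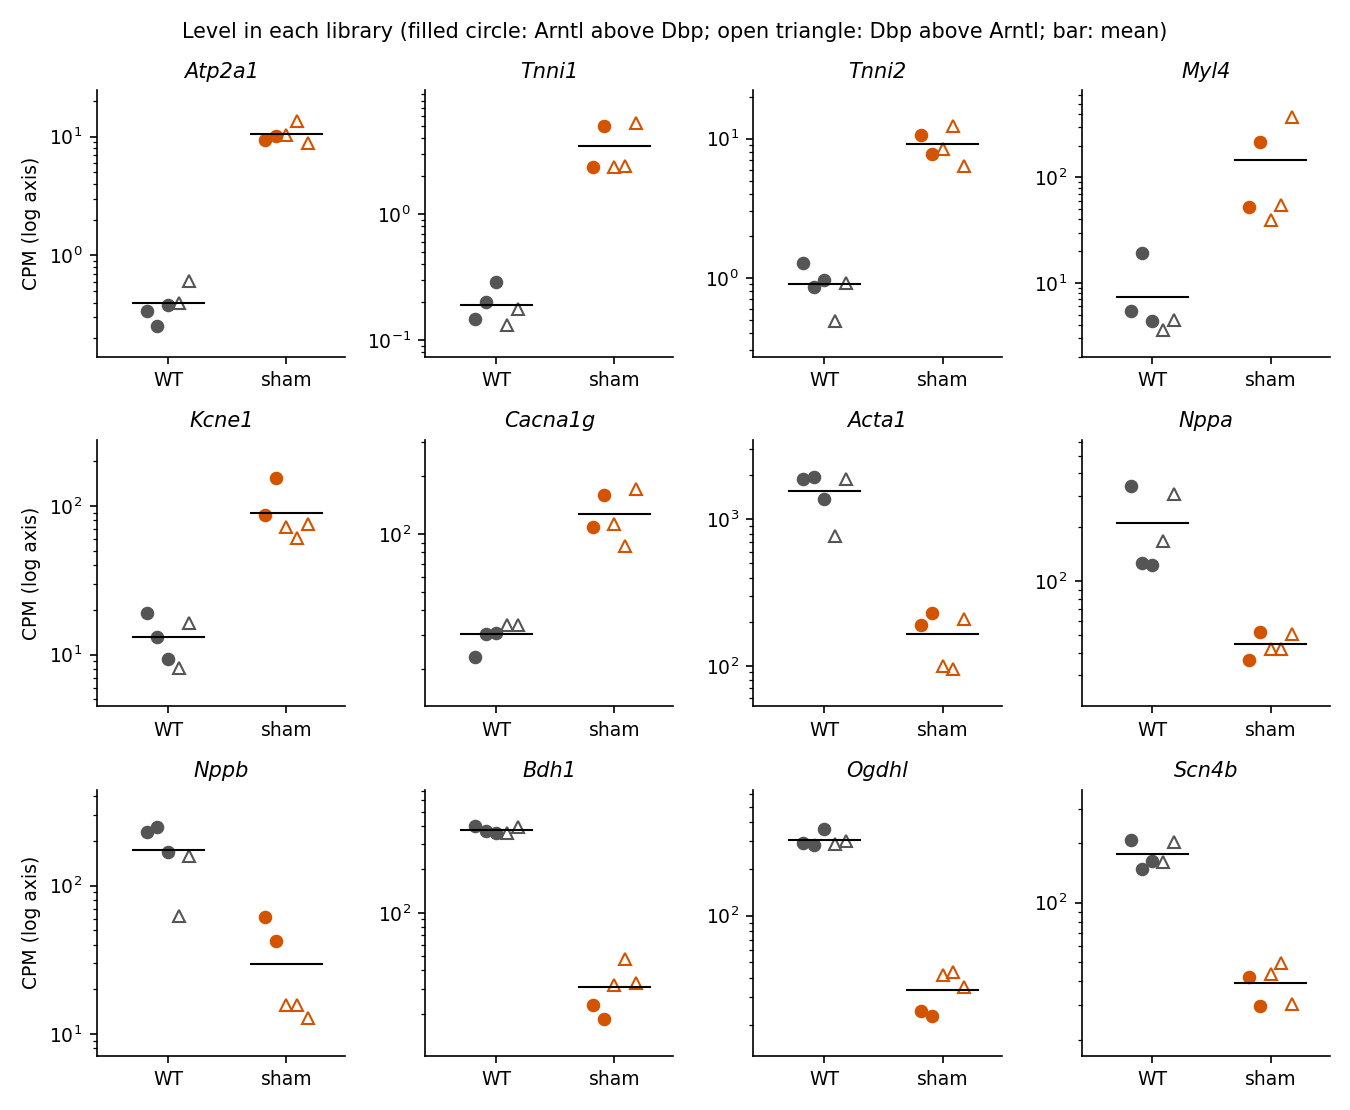
CPM of 12 genes in each library on a log axis, WT in grey and sham in orange; filled circles are libraries with Arntl above Dbp, open triangles those with Dbp above Arntl, and bars are group means. In the Nppb panel the highest sham library, at 61.1 CPM, lies just under the lowest WT library, at 62.9 CPM; sham replicates 2 and 5 are the high points of Myl4.

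Of 18 tested load and stretch genes, 9 fell and 1, Myh7, rose, with a median of -0.66. Nppa, the atrial natriuretic peptide, was at 341, 126, 124, 167 and 305 CPM in WT replicates 1 to 5 and at 36.4, 52.5, 42.2, 42 and 51.1 CPM in sham replicates 1 to 5. WT libraries differed widely among themselves, but none came down to the sham range, and the fold change was -2.24 ± 0.33 (adjusted p = 8.64e-04). Nppb, the brain natriuretic peptide, was at 232, 248, 169, 62.9 and 157 CPM in WT replicates 1 to 5 and at 61.1, 42.4, 15.7, 15.8 and 12.8 CPM in sham replicates 1 to 5 (-2.55 ± 0.57; adjusted p = 0.0091). Ankrd23, a titin-binding protein gene of the stretch response, fell by 0.95 ± 0.22 (adjusted p = 0.00991). The count of falls was 5 without WT replicate 2, 5 without both sham replicates 2 and 5, and 6 in the fit of all 18 libraries, and 3 of the genes fell in both clock phases. Among 15 genes that YAP and TEAD factors control or that act with them, 5 fell, such as Ccn1 (-0.67 ± 0.14) and Ptpn14 (-0.40 ± 0.08; adjusted p = 0.00416 and 0.00274), and 1 rose.

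Of 12 tested atrial genes 7 rose and 2 fell (58.3% and 16.7%, against 16.6% and 16.4% of all genes). Nppa, given above, was among the falls. The rises numbered 5 without sham replicates 2 and 5, and 5 to 7 with 1 library left out. Within the phases 2 rose with Arntl above Dbp and 3 with Dbp above Arntl. Several atrial genes were highest in the libraries that stood apart. Myl7, the atrial regulatory light chain, was at 0.245, 7.93, 1.06, 0.0886 and 0.263 CPM in WT replicates 1 to 5 and at 11.5, 172, 1.36, 2.07 and 316 CPM in sham replicates 1 to 5, with sham replicates 2 and 5 and WT replicate 2 above the rest of their groups. Its fold change of 5.76 ± 1.87 (adjusted p = 0.0448) was 1.42 without sham replicates 2 and 5 (adjusted p = 0.491). Leaving out WT replicate 2 gave 7.93 (adjusted p = 0.0444), and the call was lost without any 1 of the other 4 WT libraries or sham replicate 2 or 5 (adjusted p = 0.0768 to 0.0963). Myl4, the light chain of atria and fetal ventricles, was at 5.44, 19.2, 4.38, 3.59 and 4.47 CPM in WT replicates 1 to 5 and at 52.8, 218, 39.5, 54.9 and 371 CPM in sham replicates 1 to 5. All 5 sham libraries were above all WT libraries (4.32 ± 0.89; adjusted p = 0.00689), and the fold change was 2.75 without sham replicates 2 and 5 (adjusted p = 0.0155), 3.63 without sham replicate 5 alone and 5.04 without WT replicate 2. Sbk3, a kinase gene, was at 1.37, 2.17, 0.914, 2.17 and 4.43 CPM in WT replicates 1 to 5 and at 3.95, 22.4, 10.5, 7.82 and 38.7 CPM in sham replicates 1 to 5 (2.90 ± 0.69; adjusted p = 0.0121; 1.75 without sham replicates 2 and 5). The atrial genes Sbk2 and Tbx5 were not set apart in those libraries. Sbk2 rose by 1.52 ± 0.15 and was at 22.3, 31.5, 31.3, 30.5 and 33.6 CPM in sham replicates 1 to 5. Tbx5, a transcription factor of atria and left ventricle, rose by 0.91 ± 0.10, from a range of 25.3 to 33.3 CPM in WT to one of 43.6 to 60.4 CPM in sham (adjusted p = 2.30e-05 and 3.55e-05). The part of atrial tissue in these rises was not tested.

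Genes of electrical activity changed in both directions. Of 26 ion channel and connexin genes, 13 rose and 6 fell, with a median of 0.26. Kcne1 (ENSMUSG00000039639, GRCm38 chromosome 16, 92345982 to 92359468), the beta subunit of the slow delayed rectifier potassium channel, was at 19, 13.1, 9.28, 8.11 and 16.3 CPM in WT replicates 1 to 5 and at 87.5, 154, 72.4, 61.1 and 76.1 CPM in sham replicates 1 to 5. Sham replicate 2 was highest, and the rise was 2.78 ± 0.33 (adjusted p = 2.58e-04). Kcnq1, its pore-forming partner, rose by 0.85 ± 0.09 and Kcnh2, the pore of the rapid rectifier, by 0.92 ± 0.12 (adjusted p = 1.94e-05 and 1.63e-04). Kcnj5, a subunit of the acetylcholine-gated potassium channel, rose by 0.75 ± 0.07, from a range of 110.5 to 135 CPM in WT to one of 197 to 220.1 CPM in sham (adjusted p = 5.59e-06). Cacna1g, a T-type calcium channel, was at 23, 30.3, 30.5, 33.8 and 33.7 CPM in WT replicates 1 to 5 and at 108, 159, 113, 86.3 and 170.4 CPM in sham replicates 1 to 5 (2.07 ± 0.19; adjusted p = 3.44e-05).

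Among the falls, Scn4b (ENSMUSG00000046480, GRCm38 chromosome 9, 45138395 to 45154152), a beta subunit of the sodium channel, was at 209, 149, 163, 160.0 and 205 CPM in WT replicates 1 to 5 and at 41.6, 29.9, 43.3, 49.4 and 30.3 CPM in sham replicates 1 to 5. Its fold change was -2.19 ± 0.16 (adjusted p = 4.23e-06). Kcnip2, which assists the transient outward potassium channel of the adult ventricle, fell by 0.62 ± 0.09 and Hcn2, a pacemaker channel, by 1.38 ± 0.16 (adjusted p = 3.66e-04 and 1.10e-04). Of 10 tested conduction system markers, 6 rose (60%, against 16.6% of all genes) and none fell. Without sham replicates 2 and 5, 5 of these markers rose and 2 fell. With Dbp above Arntl, 4 rose and 1 fell. Hcn4, the main pacemaker channel of the sinus node, was at 12.3, 15.4, 15.2, 10.7 and 12 CPM in WT replicates 1 to 5 and at 24.1, 40.9, 26.7, 18 and 23.2 CPM in sham replicates 1 to 5 (1.02 ± 0.20; adjusted p = 0.00282). Cntn2, an adhesion protein of conduction fibres, was at 7.41, 7.13, 1.49, 5.09 and 8.94 CPM in WT replicates 1 to 5 and at 8.25, 40.0, 25.9, 18.8 and 36.5 CPM in sham replicates 1 to 5 (2.11 ± 0.52; adjusted p = 0.0134). It was at 1.57 without sham replicates 2 and 5 (adjusted p = 0.0789). The summed level of the conduction markers was 133 to 157 CPM in WT and 230.4 to 384 CPM in sham, again highest in sham replicates 2 and 5. Cacna1g is part of that sum, with means of 30.3 CPM in WT and 127 CPM in sham. Some of these markers, Cacna1g and Hcn4 among them, are in the ion channel list too.

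Of 21 genes of calcium cycling 3 rose and 5 fell (14.3% and 23.8%, near the 16.6% and 16.4% of all genes), with a median of -0.11. The rises numbered 1 without any 1 of WT replicates 1, 4 and 5 and sham replicates 1 and 3, and 1 with all 18 libraries. Camk2b, a calcium- and calmodulin-dependent kinase, fell by 1.03 ± 0.10, from a range of 37.9 to 40.8 CPM in WT to one of 15.6 to 21.9 CPM in sham, and S100a1, a calcium sensor of the sarcomere and reticulum, by 0.57 ± 0.06 (adjusted p = 8.05e-06 and 4.33e-05). The rises were small, as for Atp2a2. Of 20 cardiac transcription factors 9 rose (45%) and none fell, with a median of 0.19: Gata6 by 0.67 ± 0.12 and Mef2a by 0.36 ± 0.07 (adjusted p = 0.00115 and 0.00198), besides Tbx5. Of 19 genes of adrenergic and angiotensin signalling 7 rose (36.8%) and 1 fell (5.26%). The alpha1B receptor gene Adra1b rose by 1.18 ± 0.20, from a range of 30.1 to 48.3 CPM in WT to one of 64 to 118 CPM in sham, the beta1 receptor gene Adrb1 by 0.67 ± 0.15 and the adenylyl cyclase Adcy6 by 0.77 ± 0.11 (adjusted p = 0.00132, 0.00653 and 2.19e-04).

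Genes of fuel use fell more often than they rose, except among respiratory chain subunits, and every fall in these lists but that of Bdh1 was under 2-fold. Bdh1 (ENSMUSG00000046598, GRCm38 chromosome 16, 31422280 to 31458901), the mitochondrial enzyme that oxidises the ketone body beta-hydroxybutyrate, was at 395, 368, 358, 355 and 391 CPM in WT replicates 1 to 5 and at 23.1, 18.6, 31.8, 48.1 and 32.9 CPM in sham replicates 1 to 5. The WT libraries lay close together, far above every sham library, and the fold change was -3.60 ± 0.23 (adjusted p = 4.53e-06), or 12.1-fold lower. An antisense gene lies over Bdh1 and the library kit does not keep the strand, so reads of the pair cannot be told apart. Of 8 tested ketone genes 4 fell (50%) and 1 rose (12.5%), against 16.4% of all genes lower and 16.6% higher. Acat1, the thiolase of the same pathway, fell by 0.42 ± 0.06, and Slc16a7, a transporter of monocarboxylates, rose by 1.62 ± 0.17 (adjusted p = 1.47e-04 and 2.61e-05).

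In fatty acid uptake and oxidation 12 of 34 genes fell and 5 rose (35.3% and 14.7%, against 16.4% and 16.6% of all genes). The median was -0.08. Lpl, which frees fatty acids from circulating lipoproteins, went from a range of 6365 to 6572 CPM in WT to one of 4817 to 5437 CPM in sham (-0.35 ± 0.05), Acadm, the medium-chain dehydrogenase, fell by 0.44 ± 0.06 and Etfdh, which passes the electrons of fat oxidation on to the respiratory chain, by 0.47 ± 0.06 (adjusted p = 2.06e-04, 2.54e-04 and 1.51e-04). Etfb, a subunit of the carrier that feeds Etfdh, rose by 0.50 ± 0.07 (adjusted p = 2.08e-04). In glucose use 7 of 26 genes fell (26.9%) and none rose. Among the falls were the glycolytic enzymes Pgam2 (-0.72 ± 0.07) and Tpi1 (-0.51 ± 0.05), with adjusted p = 6.91e-06 and 2.92e-05. In the pyruvate dehydrogenase complex and the TCA cycle 11 of 28 fell (39.3%) and 2 rose (7.14%). Pdhx, which anchors a subunit of that complex, was at 289, 291, 285, 246 and 268 CPM in WT replicates 1 to 5 and at 169, 157, 161, 173 and 166 CPM in sham replicates 1 to 5 (-0.74 ± 0.06; adjusted p = 2.12e-06). Pdk1, a kinase that switches the complex off, fell by 0.51 ± 0.05 (adjusted p = 2.86e-05). Without sham replicates 2 and 5, 5 genes of this list fell. Branched-chain amino acid catabolism had 9 falls (47.4%) and 1 rise (5.26%) in 19 genes, and 5 falls without sham replicates 2 and 5. Hibch was at -0.55 ± 0.07, Ivd at -0.47 ± 0.09 and Bckdha at -0.48 ± 0.08 (adjusted p = 1.33e-04, 0.00116 and 9.48e-04). Respiratory chain subunits had 7 rises (25%) and 3 falls (10.7%) in 28. Cox8a and Atp5o rose by 0.40 ± 0.06 and 0.39 ± 0.08 (adjusted p = 2.32e-04 and 0.00177). With 1 library left out the falls in this list numbered 2 to 8, with 2 of them without WT replicate 1, sham replicate 3 or sham replicate 5.

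**Figure D4:**
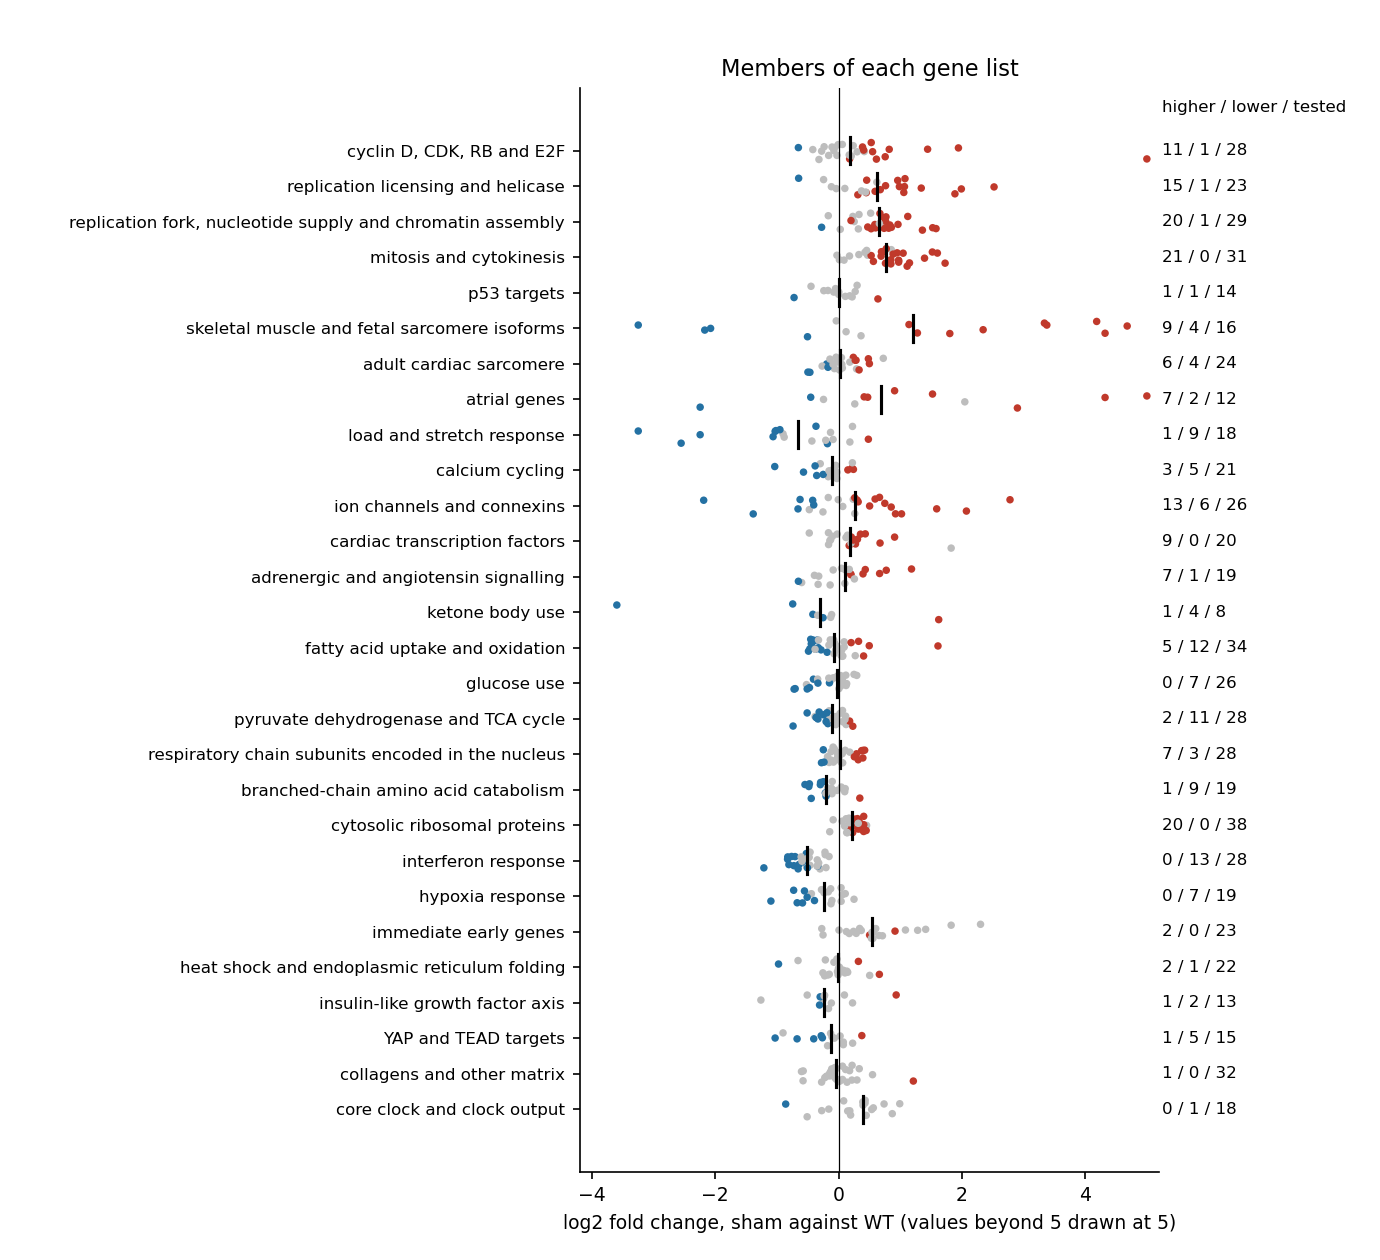
Log2 fold change of sham against WT for each tested member of the 28 gene lists, 1 point per gene; red points were called higher, blue lower and grey not called, black bars are list medians, and numbers at the right count higher, lower and tested members. The medians of the replication, mitosis and skeletal isoform lists lie to the right of 0, and those of the load, interferon and ketone lists to the left; Ccnd2 and Myl7 are drawn at 5.

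Cytosolic ribosomal protein genes rose in 20 of 38 and none fell, with a median of 0.22, such as Rplp0 at 0.41 ± 0.05 and Rpl8 at 0.40 ± 0.07 (adjusted p = 1.30e-04 and 7.44e-04). These genes have many processed copies in the genome, and reads that align to several places were not counted, so their levels are uncertain. All 28 tested interferon response genes had negative fold changes and 13 of them fell, with a median of -0.51. Oas2, an antiviral enzyme, fell by 0.64 ± 0.14, from a range of 6.09 to 8.9 CPM in WT to one of 3.72 to 5.79 CPM in sham, and Xaf1, an interferon-induced regulator of cell death, by 0.50 ± 0.13 (adjusted p = 0.00386 and 0.00862). Without sham replicates 2 and 5, 5 of these genes fell, and 7 without sham replicate 1 or sham replicate 5. Of 19 hypoxia response genes 7 fell and none rose, as Bnip3, a mitophagy receptor, at -0.55 ± 0.07 and Adm, a vasodilator peptide, at -0.58 ± 0.13 (adjusted p = 1.09e-04 and 0.00469).

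Of 23 immediate early genes 2 rose (8.7%) and none fell, against 16.6% and 16.4% of all genes, with a median of 0.54. This count depended on the fit: 1 to 3 rose with 1 library left out, 1 to 8 under other tools, scalings and filters, 6 with all 18 libraries and 8 with clock phase as a covariate. Of 22 heat shock and folding genes 2 rose (9.09%) and 1 fell (4.55%), both under the shares of all genes. The stress factor Ddit3, at 0.66 ± 0.18 (adjusted p = 0.0141), was among the rises. In the insulin-like growth factor axis 1 of 13 rose and 2 fell (7.69% and 15.4%, against 16.6% and 16.4% of all genes). The receptor gene Igf2r fell by 0.30 ± 0.06 (adjusted p = 0.00234). Of 32 collagens and other matrix genes 1 rose (3.1%) and none fell. Without sham replicates 2 and 5 none rose and 5 fell, and the rise was also lost without any 1 of WT replicates 1 to 4 or sham replicate 2 or 5.

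Markers of endothelial cells, smooth muscle and pericytes were called lower more often than higher. The part of changes in cell types in the other results was not tested. Of 16 endothelial markers 5 fell, such as Pecam1 at -0.28 ± 0.07 (adjusted p = 0.0093), and their summed level was 2389 to 3017 CPM in WT and 2091 to 2494 CPM in sham. Without sham replicates 2 and 5, 1 endothelial marker fell, and with 1 library left out the count ranged from 3 (without WT replicate 1, WT replicate 4 or sham replicate 5) to 8. None of these markers was called lower with Arntl above Dbp, and 11 of 16 were with Dbp above Arntl. Of the 8 ventricular muscle markers 5 rose and 1 fell, with 2 rises without WT replicate 1, WT replicate 5 or sham replicate 1. Of 12 smooth muscle and pericyte markers 6 fell and 1 rose, led by the pericyte gene Rgs5, which was at 982, 899, 876, 871 and 875 CPM in WT replicates 1 to 5 and at 633, 626, 666, 608 and 554 CPM in sham replicates 1 to 5 (-0.54 ± 0.06; adjusted p = 2.89e-05). Of 11 fibroblast markers 1 fell, with 5 falls without sham replicates 2 and 5 and none without any 1 of the WT libraries or of sham replicates 1, 3 and 4. Of 12 macrophage markers 1 rose, a call lost without sham replicates 2 and 5, without any 1 of WT replicates 1 to 4 and without any 1 of sham replicates 2 to 5. Upk3b, a mesothelial gene, was at 1.91, 15.3, 5.68, 2.13 and 0.438 CPM in WT replicates 1 to 5 and at 0.261, 0.224, 0.0452, 0.0449 and 1.62 CPM in sham replicates 1 to 5, so WT replicate 2 carried most of its level (-3.51 ± 1.12; adjusted p = 0.0396). All 4 tested mesothelial markers were called lower, and none was without WT replicate 2, where Upk3b was at -2.51 (adjusted p = 0.0817). Leaving out WT replicate 3 or any 1 of sham replicates 1 to 4 also ended the Upk3b call (adjusted p = 0.0683 to 0.0885), and without sham replicate 5 it was at -5.04 (adjusted p = 0.0238). The erythroid genes were not called, and the summed level ranged from 39.8 to 424 CPM in sham against 183 to 329 CPM in WT. Of 6 tested skeletal muscle fibre markers 3 rose (50%) and 2 fell (33.3%), with a median of 1.35. The rises were Mylpf, Tnni2 and Tnnt3, given above. The falls were in Ckm and Mb, muscle creatine kinase and myoglobin, which heart and skeletal muscle share. They fell by 0.35 ± 0.06 and 0.33 ± 0.06 (adjusted p = 7.94e-04 and 0.00117), while the fast skeletal myosins did not pass the filter.

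The protein-coding genes with the largest changes, among those whose mean log2 CPM reached 1 and whose groups did not overlap, came from varied families. Besides Ccnd2, Atp2a1, Myl4, Tnni2 and Kcne1, the rises were led by Ptprt, a receptor tyrosine phosphatase, which was at 1.28, 1.57, 2.31, 1.99 and 0.964 CPM in WT replicates 1 to 5 and at 29.8, 26.3, 27.1, 28.6 and 32.2 CPM in sham replicates 1 to 5 (4.15 ± 0.17; adjusted p = 1.84e-08). Ankrd63 rose by 3.23 ± 0.27, Sema6c, a membrane semaphorin, by 2.88 ± 0.26, Ddc, the decarboxylase that makes dopamine and serotonin, by 2.75 ± 0.21 and Lpar3, a receptor for lysophosphatidic acid, by 2.67 ± 0.26 (adjusted p = 7.53e-06, 4.10e-05, 3.78e-06 and 1.68e-05). Dbh, which turns dopamine into noradrenaline and was listed as a neuronal marker, rose by 0.99 ± 0.10, from a range of 6.52 to 8.46 CPM in WT to one of 13.1 to 17.1 CPM in sham (adjusted p = 1.88e-05); it was the single call among 7 tested genes of Schwann cells and neurons.

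Among the falls, Ptgds, a prostaglandin D2 synthase, was at 379.7, 374, 279, 251 and 312 CPM in WT replicates 1 to 5 and at 25.4, 30.4, 20.6, 27.4 and 38.7 CPM in sham replicates 1 to 5 (-3.48 ± 0.18; adjusted p = 4.90e-07). Cpxm2, a carboxypeptidase-like secreted protein, was at 111, 95.3, 76.5, 80.4 and 105 CPM in WT replicates 1 to 5 and at 5.08, 11.3, 5.7, 5.44 and 12.6 CPM in sham replicates 1 to 5 (-3.54 ± 0.29; adjusted p = 2.23e-05). Ogdhl, related to a subunit of the oxoglutarate dehydrogenase of the TCA cycle, was at 294, 282, 357, 288 and 299 CPM in WT replicates 1 to 5 and at 24.4, 22.7, 41.7, 43.6 and 35 CPM in sham replicates 1 to 5 (-3.18 ± 0.19; adjusted p = 1.62e-06). Gnb3, a G protein beta subunit, fell by 3.12 ± 0.17, Cyfip2, a regulator of actin assembly, by 3.02 ± 0.18, Ripor2 by 2.90 ± 0.20 and Cds1, an enzyme of phospholipid synthesis, by 2.89 ± 0.17 (adjusted p = 1.45e-07, 6.46e-07, 9.48e-07 and 2.51e-07).

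Long noncoding RNAs were chosen by the same limits. The largest rises were 4930513N10Rik (1.92 ± 0.11), A730056A06Rik (1.52 ± 0.18) and Gm16316 (1.39 ± 0.18; adjusted p = 2.40e-07, 4.65e-05 and 1.28e-04). The largest falls were 1500002F19Rik (-1.85 ± 0.20), Gm13943 (-1.69 ± 0.19) and Gm20632 (-1.08 ± 0.22; adjusted p = 3.31e-05, 4.56e-05 and 0.00255). Their highest group mean was 10.9 CPM, for 4930513N10Rik in sham.

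The libraries fell into 2 clock phases that the labels do not give. Arntl, which encodes the clock activator BMAL1, was at 42, 39.6, 34.7, 3.1 and 1.88 CPM in WT replicates 1 to 5 and at 38.5, 42.6, 1.36, 0.809 and 0.964 CPM in sham replicates 1 to 5. Dbp, an output gene that peaks at another time of day, was at 10.7, 10.0, 9.67, 172 and 161 CPM in WT replicates 1 to 5 and at 9.77, 8.36, 223, 241 and 186 CPM in sham replicates 1 to 5. Arntl was above Dbp in WT replicates 1 to 3 and sham replicates 1 and 2, and below it in WT replicates 4 and 5 and sham replicates 3 to 5, so each phase held both groups. The groups were not fully matched within a phase. Where Dbp was above Arntl, log2 Arntl minus Dbp was -5.753 and -6.355 in WT and -7.269 to -8.066 in sham. Of 18 genes of the clock and its output, sham against WT called 4 higher and 2 lower there. With Arntl above Dbp it called 3 higher and 4 lower. With genotype kept in the model, 2278 genes were called for the phase.

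Within the libraries with Arntl above Dbp, 1910 genes were higher and 2210 lower in sham, and within those with Dbp above Arntl 1440 and 1385. In both phases 932 genes were higher and 965 lower. The phases share no library. Of the 4120 genes called with Arntl above Dbp, 94.9% had the same sign and 46% were called in the same direction with Dbp above Arntl, and of the 2825 called there, 95.7% had the same sign in the other phase; over all 14008 genes the share with the same sign was 76.5%. The log2 fold changes of the phases had a Pearson correlation of 0.79 across genes, which are not independent replicates. Ccnd2 was at 7.38 with Arntl above Dbp and 7.13 with Dbp above Arntl, Mcm2 at 2.76 and 2.25, Mcm5 at 2.11 and 1.78, Atp2a1 at 4.86 and 4.42, Tnni1 at 4.08 and 4.41, and Bdh1 at -4.18 and -3.30; each of these was called in both.

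**Figure D5:**
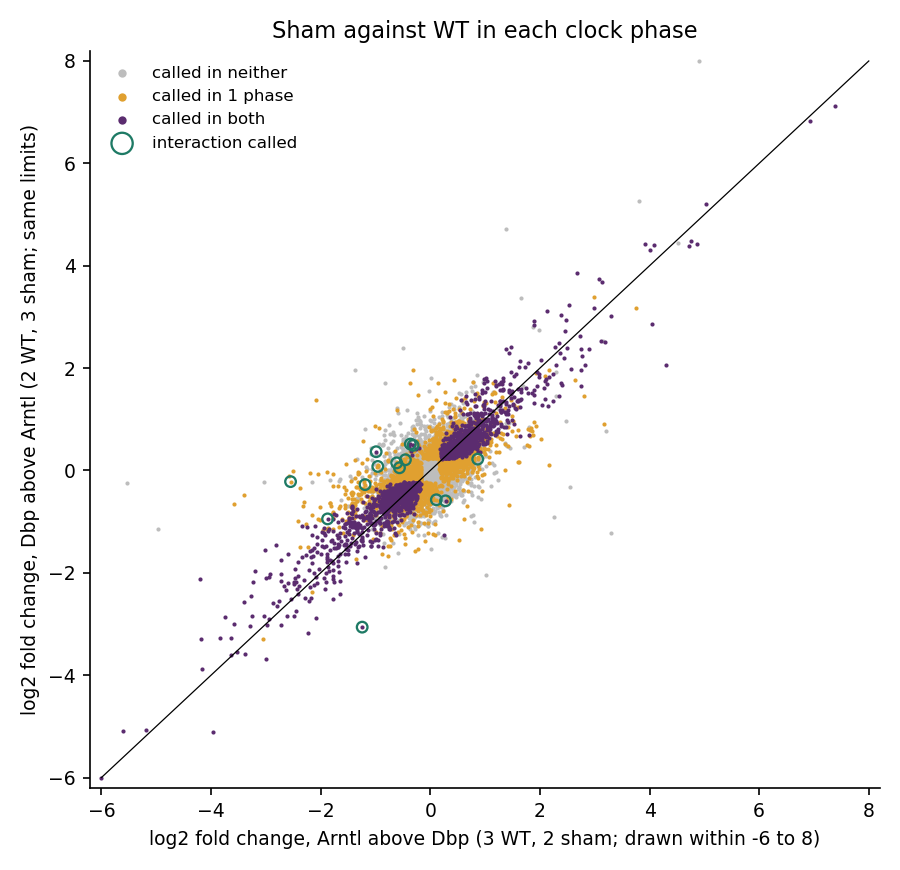
Log2 fold change of sham against WT within the 5 libraries with Arntl above Dbp (horizontal axis) and within the 5 with Dbp above Arntl (vertical axis), 1 point per gene; purple points were called in both phases, orange in 1, and green rings mark the 14 genes with a called interaction. Points called in both phases lie mostly near the diagonal, with Ccnd2 at the top right.

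By list, the rises of replication genes were present in each phase: 10 of 23 licensing genes and 16 of 29 fork genes rose in both, as did 13 of 31 mitosis genes. Ribosomal protein genes rose in 20 with Arntl above Dbp and in 2 with Dbp above Arntl, and the TCA list fell in 11 and in 2. Load genes fell in 8 and 5. The smaller fits have 5 libraries each, and these counts were not tested against each other. A test of the difference, the interaction of group and phase over all 10 libraries, called 14 genes (0.0999% of those tested; 1472 had an unadjusted p under 0.05). Tef and Ciart, of the clock list, were among these 14, and none of the others is a member of a gene list used here. Some calls of genes named here were lost in 1 phase. With Dbp above Arntl these included Acta1 (adjusted p = 0.0564), Myh6 (0.0542), Myh7 (0.0923), Tnni3 (0.218), Lpl (0.0515), Atp5o (0.102), Rpl8 (0.0684), Oas2 (0.19), Adm (0.229) and Mb (0.155). With Arntl above Dbp they included Nppa (adjusted p = 0.132), Cntn2 (0.256), Gata6 (0.124), Adrb1 (0.123), Xaf1 (0.123), Ddit3 (0.0821), Ccn1 (0.122) and Pecam1 (0.236). Atp2a2 (0.0679 and 0.0845), Myl4 (0.102 and 0.157), Myl7 (0.168 and 0.332), Sbk3 (0.122 and 0.231) and Upk3b (0.113 and 0.662) were lost in both, given as adjusted p with Arntl above Dbp and then with Dbp above Arntl. Every one of these kept its direction in each phase.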

How the data were processed

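RNA of left ventricle myocardium was sequenced as unstranded TruSeq libraries, per the labels' protocols. The submitters' processing notes name the aligner STAR 2.3.0e and GRCm38, HTSeq 0.6.1p1, SAMtools 0.1.19, FastQC, CASAVA 1.8.2 and DESeq2 1.8. The authors deposited raw counts per gene for each library, in which reads that align to several places are not assigned to genes. The annotation release and the strand setting of the counting are not given in the sources used here.

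The 5 libraries labelled control sham and the 5 labelled control WT were tested in R 4.3.3 with edgeR 4.0.16 (TMM scaling, filterByExpr with a minimum count of 10, robust quasi-likelihood test, Benjamini-Hochberg adjustment over 14008 genes). Summary lines of the counting, which name no gene, were left out of library sizes. Positions and symbols are from GENCODE M21, with 36602 of 38355 genes matched. The biological coefficient of variation was 0.144. In simulated data of this comparison over 14008 genes, 68.7% of 1.5-fold, 91% of 2-fold and 100% of 4-fold changes were recovered, with 10 calls among 13808 unchanged genes. The simulation changed far fewer genes than the 4631 called in the data and held no clock phases. Its rates therefore need not hold for the data. No 2 libraries of a group agreed within counting noise.

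The compared groups, the named genes and the gene lists were chosen with earlier results of these data known. The genes named are from: the 5 marker genes of the comparison; the 10 largest rises and falls among called protein-coding genes whose mean log2 CPM reached 1 and whose groups did not overlap, and 3 long noncoding RNAs each way; called list members by smallest p, up to 6 each way; adult partners of isoform pairs; and Arntl and Dbp. Some genes that this rule names are not reported here. Alternatives were DESeq2 1.42.0, limma 3.58.1, other scalings and filters, all 18 libraries, clock phase, a replicate block and each library left out.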

Additional observations from a re-analysis of the deposited data

Results flagged for a closer look

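For 16 of 232 groups of 5 values the highest or lowest library stood far from the other 4 by Dixon's test. Chance gives this in about 1 in 20 groups, or 11.6 of 232. Sham replicate 2 was low for Mcm5 (20.8 CPM), Cdt1 (7.02 CPM) and Gm13943 (1.38 CPM), and high for Kcne1 (154 CPM). Sham replicate 1 was low for Sbk2 (22.3 CPM). Sham replicate 4 was high for Mylpf (4.27 CPM) and Ckm (2524 CPM), and sham replicate 5 for Upk3b (1.62 CPM). WT replicate 2 was high for Myl4 (19.2 CPM) and Myl7 (7.93 CPM). WT replicate 3 was high for Eda2r (6.3 CPM) and Ogdhl (357 CPM). WT replicate 4 was high for Tnni3 (6653 CPM) and Rpl8 (367 CPM), WT replicate 5 for Hcn2 (69.9 CPM) and WT replicate 1 for Rgs5 (982 CPM).

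The difference between sham and WT itself differed between clock phases for 14 genes, by the interaction term of edgeR's quasi-likelihood test. The values are the log2 fold change with Arntl above Dbp minus that with Dbp above Arntl. They were -2.31 for Ciart and -1.33 for Tef, genes of the clock and its output, -1.01 for Gpcpd1, -0.90 for Armc2, -0.89 for Dgat2, -0.86 for Herpud1, -0.78 for Nampt, -0.74 for Mknk2, -0.64 for Sbk1 and -0.59 for Sqstm1. They were 1.84 for Colq, 0.90 for Leo1, 0.71 for Ckap4 and 0.67 for Tubb5.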

How the results depend on the processing

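With 1 library left out, 1927 to 2286 genes were higher and 1919 to 2241 lower in sham. Where Dbp was above Arntl, 1440 genes were higher and 1385 lower. Against a fold of 1.5 they were 204 and 247 by edgeR's glmTreat. Without the low-count filter 391 genes were at least 2-fold higher. The interaction with clock phase called 2 to 20 genes with 1 library left out: 2 without sham replicate 2, 4 without WT replicate 2, 5 without WT replicate 4 and 7 without WT replicate 3. With a replicate block, 2595 genes were higher and 2575 lower. Same-numbered libraries correlated at 0.25, 0.301, -0.182, 0.315 and 0.226, after the mean of each group was taken out. For replicates 2 and 4 the same-numbered correlation was the highest. Clock phase was left in these values, and only replicate 3 had its WT and sham libraries in opposite phases. They therefore cannot decide whether the numbers pair the samples. Of 113 called genes named in the text, 111 stayed called without each library, 111 under the other tools, scalings and filters, 112 with all 18 libraries and 90 within both clock phases. All 113 kept their sign in every alternative run. Most of them were chosen for a small p or a large change, so these counts do not stand for all calls. Of all 4631 calls, 3769 (without WT replicate 1) to 4101 (without WT replicate 4) stayed with 1 library left out. With all 18 libraries 3948 stayed. Within the phases 3327 stayed with Arntl above Dbp and 2361 with Dbp above Arntl. The cause of these changes was not tested. Genes near 1 CPM or below, such as Tnni1 in WT, rest on few reads, and their fold changes are less certain than their direction.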

Other observations

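Cd3e, a T cell receptor subunit gene, was at 0.687, 0.253, 0.529, 0.266 and 0.131 CPM in WT replicates 1 to 5 and at 3.08, 2.73, 1.94, 2.25 and 1.53 CPM in sham replicates 1 to 5, a rise of 2.63 ± 0.34 (adjusted p = 1.09e-04 in edgeR's quasi-likelihood test). It was the single call among 3 tested lymphocyte and neutrophil markers. Its position (ENSMUSG00000032093, GRCm38 chromosome 9, 44998740 to 45009627) is on the same chromosome as Scn4b (ENSMUSG00000046480, GRCm38 chromosome 9, 45138395 to 45154152), which fell in the same libraries. Over all genes tested 16.6% were higher and 16.4% lower, so called genes can lie near each other without a link. Other genes of the region were not compared, and a relation between these 2 changes was not tested.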
